A study of Mus musculus with 24 samples.

Results

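The comparison set 3 arrays of Ikaros-null (KO) LK GFPneg cells, which the labels call MEP for megakaryocyte and erythroid progenitors, against 3 arrays of KO LSK GFPneg-lo cells, which they call HSC for stem cells. These are 6 of the 24 arrays of the series, taken by their titles, and 18193 genes were tested. RNA of sorted mouse blood progenitors was hybridised to Affymetrix one-colour arrays, and values are log2 signal after RMA, so a difference of 1 is a 2-fold change. LSK cells lack lineage markers and carry Sca-1 and Kit, and LK cells lack lineage markers and carry Kit. GFP came from the B-p-GFP-C transgene (C57BL/6 x C3H), a reporter built on Ikaros regulatory sequence, and GFPneg and GFPneg-lo are gates on its signal. Both KO groups lacked Ikaros (I74 null line, C57BL/6 x 129SV) and carried the reporter. The same step in wild-type (WT) cells, 3 WT LK GFPneg arrays against 3 WT LSK GFPneg-lo arrays with the reporter alone, was set beside it, and strain and genotype cannot be told apart where KO and WT are compared. Replicate arrays are described as biological in the titles, but nothing says whether an array holds RNA of 1 mouse or of a pool, so p-values measure the spread between arrays. The genes that define the sort (Kit and Sca-1) are no result of it.

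Stem cells at the top of blood formation keep a set of transcription factors and surface receptors that is lost as cells commit to a lineage. Commitment to red cells runs through Gata1 and Klf1, which turn on the erythropoietin receptor, iron uptake, heme synthesis and membrane proteins before globin is made in quantity. Megakaryocytes, which shed platelets, share much of their programme with stem cells, and Ikaros, a zinc finger protein encoded by Ikzf1, is best known for its part in lymphoid development.

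The labels were checked against markers. Of 6 markers of MEP and erythroid cells, 4 rose in KO LK GFPneg, and their summed linear signal was 25100 to 35800 in KO LK GFPneg, against 8680 to 12300 in KO LSK GFPneg-lo. Of 5 stem cell markers all fell, with sums of 1110 to 1290 in KO LK GFPneg and 9890 to 15200 in KO LSK GFPneg-lo. Of 4 megakaryocyte markers 3 fell, with sums of 2030 to 2810 in KO LK GFPneg and 5460 to 11700 in KO LSK GFPneg-lo. Marker sums of some other lineages were also lower in KO LK GFPneg, such as 618 to 888 against 4980 to 9030 in KO LSK GFPneg-lo for granulocyte and monocyte markers, and 336 to 473 against 1240 to 1450 for mast cell and basophil markers. Sums overlapped for B cell markers (136 to 171 against 116 to 148), mature neutrophil markers (242 to 262 against 258 to 404) and stroma and endothelium markers (399 to 670 against 447 to 890). How much cells of other lineages added to any result was not tested, and in bulk RNA fewer cells of a type and less RNA per cell cannot be told apart. Ikzf1 read 8.88, 7.46 and 8.85 in KO LK GFPneg, against 8.02, 7.23 and 7.31 in KO LSK GFPneg-lo, and the groups overlapped. It averaged 11.84 in WT LK GFPneg and 11.15 in WT LSK GFPneg-lo, above every KO array. Its KO step of 0.88 ± 0.36 (limma standard error) had an adjusted p of 0.0897, and 0.0185 with replicate number as a block on the 6 compared arrays alone. Kit, a gate gene, read 12.11, 11.19 and 11.86 in KO LK GFPneg, against 12.49, 11.63 and 11.76 in KO LSK GFPneg-lo, and these overlapped. Arrays of a group correlated at r = 0.9795 to 0.9922 in KO LK GFPneg and 0.9857 to 0.9949 in KO LSK GFPneg-lo, against 0.9362 to 0.9561 between them over genes (not independent replicates). The Y-linked gene Eif2s3y read 4.08, 8.33 and 4.14 in KO LK GFPneg, against 4.14, 7.99 and 4.01 in KO LSK GFPneg-lo, so replicate 2 stood apart in both groups. It read 8.10 to 10.40 in WT LK GFPneg and 8.04 to 9.92 in WT LSK GFPneg-lo, so the KO and WT arrays also differ in how much RNA of male cells they held, and its part in differences between KO and WT was not tested.

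In all, 4125 genes (22.7% of those tested) differed at an adjusted p below 0.05 (limma, Benjamini-Hochberg), and these are the genes called here. In KO LK GFPneg 1662 genes (9.14%) were higher and 2463 (13.5%) lower than in KO LSK GFPneg-lo. The falls were also larger: 1227 genes (6.74%) fell at least 2-fold and 361 (1.98%) rose at least 2-fold. The split changed when each array was centred on its median over the 18193 genes, taken at their brightest probe sets. That moved all differences up by 0.199. The median difference over all genes thus went from 0.065 to 0.264, away from no difference rather than towards it. With this centring 7493 genes were higher and 1990 lower (79% of calls higher, against 40.3%). Medians over all probe sets of an array overlapped: KO LK GFPneg spanned 6.566 to 6.707, KO LSK GFPneg-lo 6.639 to 6.685. Centred counts therefore depend on which median is used, and which scaling is right was not tested. Counts of rises and falls over all genes are given as deposited, and small differences should be read against that shift.

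The strongest rise was in Reps2, an adaptor of receptor endocytosis, at 9.94, 9.18 and 9.81 in KO LK GFPneg against 6.52, 5.96 and 6.38 in KO LSK GFPneg-lo (3.36 ± 0.18, 10.3-fold, adjusted p = 3.03e-11). Every KO LK GFPneg array lay above every KO LSK GFPneg-lo array, as the rule for these 12 genes required. Acsl6, which activates long-chain fatty acids, read 10.35, 9.43 and 10.42 in KO LK GFPneg against 7.42, 6.26 and 7.11 in KO LSK GFPneg-lo (3.13 ± 0.25). Trib2, a Tribbles pseudokinase, read 11.66, 11.39 and 11.53 in KO LK GFPneg against 8.75, 8.99 and 8.79 in KO LSK GFPneg-lo (2.68 ± 0.18). These arrays were close within each group. Tlcd4 (3.31 ± 0.42) was more scattered, at 9.61, 7.46 and 9.14 in KO LK GFPneg, against 6.49, 4.54 and 5.25 in KO LSK GFPneg-lo, with replicate 2 lowest in both. The others were the centrosome gene Ninl (3.06), Ccdc68 (2.80), Asb17 (2.75), Nxpe2 (2.67), the growth factor signalling adaptor Garem1 (2.63), the tetraspanin Tspan33 (2.62), the transcription elongation factor Ell2 (2.62) and Ltbp1 (2.58), which binds latent TGF-beta.

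The falls were deeper. Cd34, a stem and progenitor surface glycoprotein, read 6.12, 5.67 and 5.37 in KO LK GFPneg against 12.81, 11.44 and 11.69 in KO LSK GFPneg-lo, a 76.7-fold difference (-6.26 ± 0.40, adjusted p = 3.18e-10). Vldlr, a lipoprotein receptor, read 5.02, 5.07 and 5.11 in KO LK GFPneg, against 11.27, 11.24 and 10.61 in KO LSK GFPneg-lo (-5.97 ± 0.30). Both genes were near the low end of the array's range in all 3 KO LK GFPneg arrays, where the lower quartile of gene means was 5.94, so their folds may be understated. Bex1 (-5.62), the growth factor receptor gene Pdgfrb (-5.54), the matrix protein gene Itih5 (-5.53), the protease inhibitor gene Serpinb1a (-5.29), Fgd5 (-5.23), the adhesion molecule gene Alcam (-5.21), Procr (-5.20), Ctla2b (-5.13), Nrep (-5.05) and the leukocyte actin regulator Coro1a (-4.95) completed the 12. The brightest probe set stands for each gene here, and dimmer probe sets of some genes gave much smaller differences: 0.28 for Reps2, 0.28 and 0.06 for Trib2, 0.12 and 0.06 for Mycn, -0.02 and -0.27 for Mecom, -0.07 for Itgb3, -0.42 for Csf2rb, -0.21 for Hoxa9, 0.17 for Erg and 0.05 for Anxa1.

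**Figure D1:**
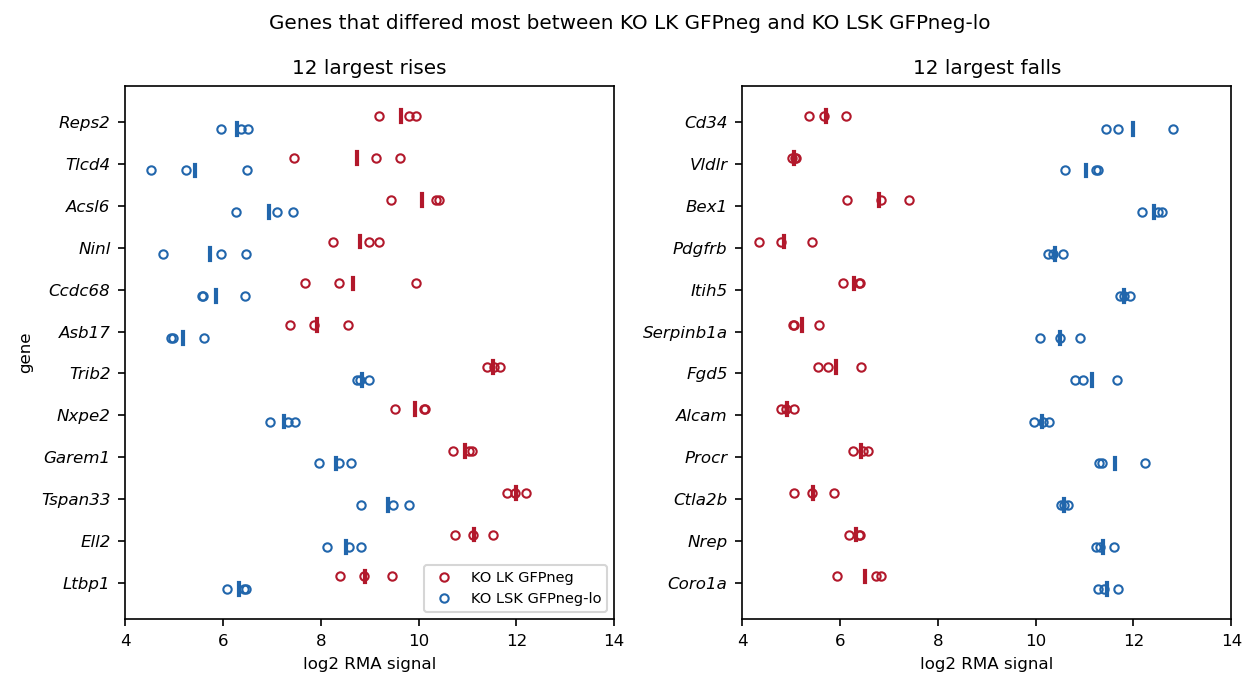
Log2 RMA signal (horizontal) of the 12 genes that rose most and the 12 that fell most (vertical), with a circle for each array and a bar at the mean of 3 arrays, KO LK GFPneg above KO LSK GFPneg-lo for each gene. The circles of the groups do not overlap for any of these genes, and the gaps on the right (up to 6.26 for Cd34) are wider than on the left (up to 3.36 for Reps2).

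Promoters are shown for the 3 erythroid genes with the largest rises that the promoter table holds and the 2 stem cell transcription factor genes with the largest falls, because Gata1 and Klf1 act through short sites in such regions. The sequence of Kel lies at chr6:41704276-41704575, minus strand. The sequence of Rhd lies at chr4:134864286-134864585, plus strand. The sequence of Klf1 lies at chr8:84901732-84902031, plus strand. The sequence of Mycn lies at chr12:12941787-12942086, minus strand. The sequence of Mecom lies at chr3:30509710-30510009, minus strand. Sequences are from RefSeq on GRCm38.p6, 5′ to 3′ on the gene's strand, from 250 bases before the start to 50 after it, and Mecom has 2 starts in the table, of which the first is shown. Capitals mark matches on either strand to a GATA site (AGATAA or AGATAG, and likewise TGATAA or TGATAG) or to the CACCC box CCNCNCCC, which Klf family proteins bind. Ets sites (CCGGAAG) and the Ikaros core site (TGGGAA) were searched as well, and no match lies in these 5 windows.
Kel: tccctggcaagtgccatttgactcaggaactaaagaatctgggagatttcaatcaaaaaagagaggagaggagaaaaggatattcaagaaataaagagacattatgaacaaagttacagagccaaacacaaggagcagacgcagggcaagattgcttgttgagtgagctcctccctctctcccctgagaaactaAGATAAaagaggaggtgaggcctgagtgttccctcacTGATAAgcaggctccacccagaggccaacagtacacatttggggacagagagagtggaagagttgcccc
Rhd: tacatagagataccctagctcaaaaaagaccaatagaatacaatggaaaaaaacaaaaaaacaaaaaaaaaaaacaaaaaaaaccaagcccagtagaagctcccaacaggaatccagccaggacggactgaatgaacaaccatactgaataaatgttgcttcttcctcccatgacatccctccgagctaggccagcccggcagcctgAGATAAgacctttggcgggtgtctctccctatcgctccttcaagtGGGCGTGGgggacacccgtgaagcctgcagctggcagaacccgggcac
Klf1: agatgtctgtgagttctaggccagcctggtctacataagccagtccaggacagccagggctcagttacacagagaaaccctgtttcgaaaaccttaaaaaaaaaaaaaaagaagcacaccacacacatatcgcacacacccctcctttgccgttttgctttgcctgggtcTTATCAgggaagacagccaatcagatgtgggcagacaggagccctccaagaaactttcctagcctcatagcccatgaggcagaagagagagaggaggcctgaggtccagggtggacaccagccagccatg
Mycn: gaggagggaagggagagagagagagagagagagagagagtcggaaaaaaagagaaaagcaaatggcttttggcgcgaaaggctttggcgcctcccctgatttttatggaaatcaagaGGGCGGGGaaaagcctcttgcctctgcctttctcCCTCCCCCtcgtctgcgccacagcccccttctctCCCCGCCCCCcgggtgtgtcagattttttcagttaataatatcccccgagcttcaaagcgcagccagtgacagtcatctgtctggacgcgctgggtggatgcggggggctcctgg
Mecom: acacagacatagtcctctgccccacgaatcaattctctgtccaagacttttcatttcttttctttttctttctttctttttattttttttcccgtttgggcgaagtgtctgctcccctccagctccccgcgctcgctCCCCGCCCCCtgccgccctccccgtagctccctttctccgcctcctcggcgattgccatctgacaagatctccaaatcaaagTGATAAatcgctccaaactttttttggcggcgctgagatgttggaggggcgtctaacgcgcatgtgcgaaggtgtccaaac

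Counted from the start, Kel holds GATA matches at -56 and -19, Rhd 1 at -43 and Klf1 1 at -80, while Rhd also holds a CACCC match at 3. Mycn has 4 CACCC matches, from -133 to -63, and the last pair overlap. Mecom has an overlapping pair of CACCC matches at -113 and -111 and a GATA match at -31. Of the 25 genes of the erythroid and heme lists that were called higher and have a promoter, 12 (48.0%) hold a GATA match, against 22.3% of 14367 tested genes, 22.5% of 284 genes called at least 2-fold higher and 30.2% of all 27025 promoters. Among all genes called higher the GATA share was 20.2%. Of 15 stem cell transcription factor genes called lower, 14 (93.3%) hold a CACCC match, against 63.3% of tested genes, 71.1% of genes called at least 2-fold lower and 49.1% of all promoters. Ikaros core matches were in 26.4% of genes at least 2-fold higher, 23.1% of genes at least 2-fold lower, 24.1% of tested genes and 25.5% of all promoters. Ets matches were in 13.4% of genes at least 2-fold higher, 7.43% of genes at least 2-fold lower, 13.8% of tested genes and 9.12% of all promoters (22.2% of all genes called higher and 9.99% of all called lower). A match describes the letters and is no evidence of binding.

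Of 16 erythroid transcription factor genes measured, 6 rose and 3 fell in KO LK GFPneg. Over all genes 9.14% were called higher and 13.5% lower, so the falls were near the general share. The median difference of the list was 0.38, against 0.065 over all genes. Klf1, the erythroid Krüppel-like factor, read 12.54, 12.20 and 12.19 in KO LK GFPneg against 10.10, 9.87 and 10.03 in KO LSK GFPneg-lo (2.31 ± 0.36, 4.95-fold, adjusted p = 6.52e-05), and the groups were well apart. Klf3 (1.19 ± 0.21), a repressor of the same family, Tcf3 (0.82 ± 0.17), an E protein partner of Tal1, and Mafk (0.54 ± 0.13), a small Maf protein, rose as well. The Gata1 cofactor gene Ldb1 (1.25 ± 0.34) and Gfi1b (0.88 ± 0.28), a repressor that Gata1 activates, also rose. Leaving out KO LSK GFPneg-lo replicate 3 ended the call for Ldb1 (0.98, adjusted p = 0.065), and Gfi1b lost it in 4 of 6 such fits (highest adjusted p 0.0993). Gata1 read 12.17, 12.26 and 12.13 in KO LK GFPneg against 10.53, 11.31 and 11.16 in KO LSK GFPneg-lo. Its arrays did not overlap, but the difference of 1.19 ± 0.45 was not called (adjusted p = 0.0667). It was called with the 6 compared arrays alone (adjusted p = 0.00743), and with replicate number as a block on those arrays (adjusted p = 0.000852). Sox6 (-2.10 ± 0.24), which silences embryonic globin, Ikzf2 (-1.79 ± 0.20), which encodes the Ikaros relative Helios, and Nfe2 (-0.92 ± 0.13), a factor of platelet formation and globin expression, fell. Myb, needed for progenitor growth, read 13.46, 13.50 and 13.37 in KO LK GFPneg, against 13.62, 13.33 and 13.36 in KO LSK GFPneg-lo, a difference of 0.01 ± 0.09.

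Receptors, membrane proteins and enzymes of red cells rose together. Of 24 measured, 14 rose and 0 fell, with a median of 1.16. Epor, the erythropoietin receptor, read 11.00, 10.51 and 10.62 in KO LK GFPneg against 8.97, 8.76 and 8.73 in KO LSK GFPneg-lo (1.90 ± 0.15, 3.72-fold, adjusted p = 5.89e-09). Kel, which carries the Kell blood group, read 10.78, 10.84 and 10.65 in KO LK GFPneg against 8.37, 8.35 and 7.83 in KO LSK GFPneg-lo (2.57 ± 0.23, 5.95-fold). In both genes the lowest KO LK GFPneg array was above the highest KO LSK GFPneg-lo array by more than 1 log2 unit. The tight junction family gene Cldn13 (2.58 ± 0.27), the Rhesus genes Rhd (2.48 ± 0.23) and Rhag (2.08 ± 0.42), Ermap (2.27 ± 0.36), the biliverdin reductase gene Blvrb (2.16 ± 0.29), the water channel gene Aqp1 (2.10 ± 0.36) and Tspo2 (2.08 ± 0.16) rose at least 2-fold too. Skeleton genes followed with Ank1, the ankyrin gene (1.59 ± 0.21), Add2, an adducin gene (1.31 ± 0.17), and Sptb, a spectrin gene (0.70 ± 0.10). Car1, a carbonic anhydrase gene, read 13.93, 13.04 and 13.03 in KO LK GFPneg against 12.71, 11.07 and 11.07 in KO LSK GFPneg-lo, with replicate 1 highest in both (1.72 ± 0.48). It lost its call in 3 of 6 fits that left out 1 array, at an adjusted p of up to 0.0705. Slc4a1, the band 3 anion exchanger of later red cells, was 6.87 to 7.09 in KO LK GFPneg and 6.65 to 7.12 in KO LSK GFPneg-lo.

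Most heme synthesis genes rose as well, and some iron genes did. Of 11 measured genes of heme synthesis, 9 rose and 0 fell (median 0.84). Cpox, a mitochondrial enzyme of the pathway, read 11.76, 11.87 and 12.19 in KO LK GFPneg against 9.52, 9.46 and 10.17 in KO LSK GFPneg-lo (2.23 ± 0.28, 4.68-fold, adjusted p = 4.31e-06), with no overlap. Slc25a38, a mitochondrial glycine carrier, rose by 1.30 ± 0.18, Alad by 1.18 ± 0.24, Fech, which inserts the iron, by 0.94 ± 0.11, Abcb10 by 0.92 ± 0.18, Uros by 0.84 ± 0.15 and Urod by 0.74 ± 0.20. Alas2, the erythroid first enzyme, was low, at 5.75, 5.93 and 5.90 in KO LK GFPneg, against 4.94, 5.26 and 5.56 in KO LSK GFPneg-lo (0.61 ± 0.16). Without KO LSK GFPneg-lo replicate 1 its difference of 0.45 had an adjusted p of 0.0625. Alas1, the enzyme of other tissues, differed by -0.45 ± 0.33 (adjusted p = 0.371, and 0.0194 with the block). Of 11 genes of iron uptake and storage, 4 rose, 1 fell and 6 were not called (median 0.57), with 6 and 2 with the block and 6 and 1 with median centring. The transferrin receptor gene Tfrc read 12.69, 11.95 and 12.89 in KO LK GFPneg against 10.81, 10.52 and 11.07 in KO LSK GFPneg-lo (1.71 ± 0.22, 3.27-fold), which did not overlap. The iron exporter gene Slc40a1 (1.81 ± 0.35) and importer gene Slc11a2 (1.53 ± 0.19) rose, as did Aco1 (0.57 ± 0.14), an iron-responsive RNA-binding protein. Ncoa4, the ferritin autophagy receptor gene, fell (2.01-fold lower) and lost its call without KO LSK GFPneg-lo replicate 1 (adjusted p = 0.0511) or KO LK GFPneg replicate 2 (0.0624). It was not called with the mean over its probe sets (-0.378, adjusted p = 0.206), and its other probe set gave 0.248.

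The globin genes that were measured stayed near background in both groups. Of 11 listed globin genes 6 were measured, while Hbb-b1, Hbb-bs, Hbb-bt, Hbq1a and Hbq1b were not. Total globin RNA therefore cannot be read from these values. The 6 measured globin genes averaged 5.88 to 6.05 per array in KO LK GFPneg, below the median gene (7.46). Hbb-bh1, an embryonic beta-like globin, was the 1 member called (0.22 ± 0.08, adjusted p = 0.0464), and it was not called with the block (adjusted p = 0.216) or in 5 of 6 fits that left out 1 array. With each array centred on its median over genes, which adds 0.199 to every difference, 6 of 6 were called higher (median 0.39). Hba-a2 read 5.89, 5.87 and 5.84 in KO LK GFPneg, against 5.61, 5.56 and 5.61 in KO LSK GFPneg-lo, a difference that was not called (adjusted p = 0.0639).

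**Figure D2:**
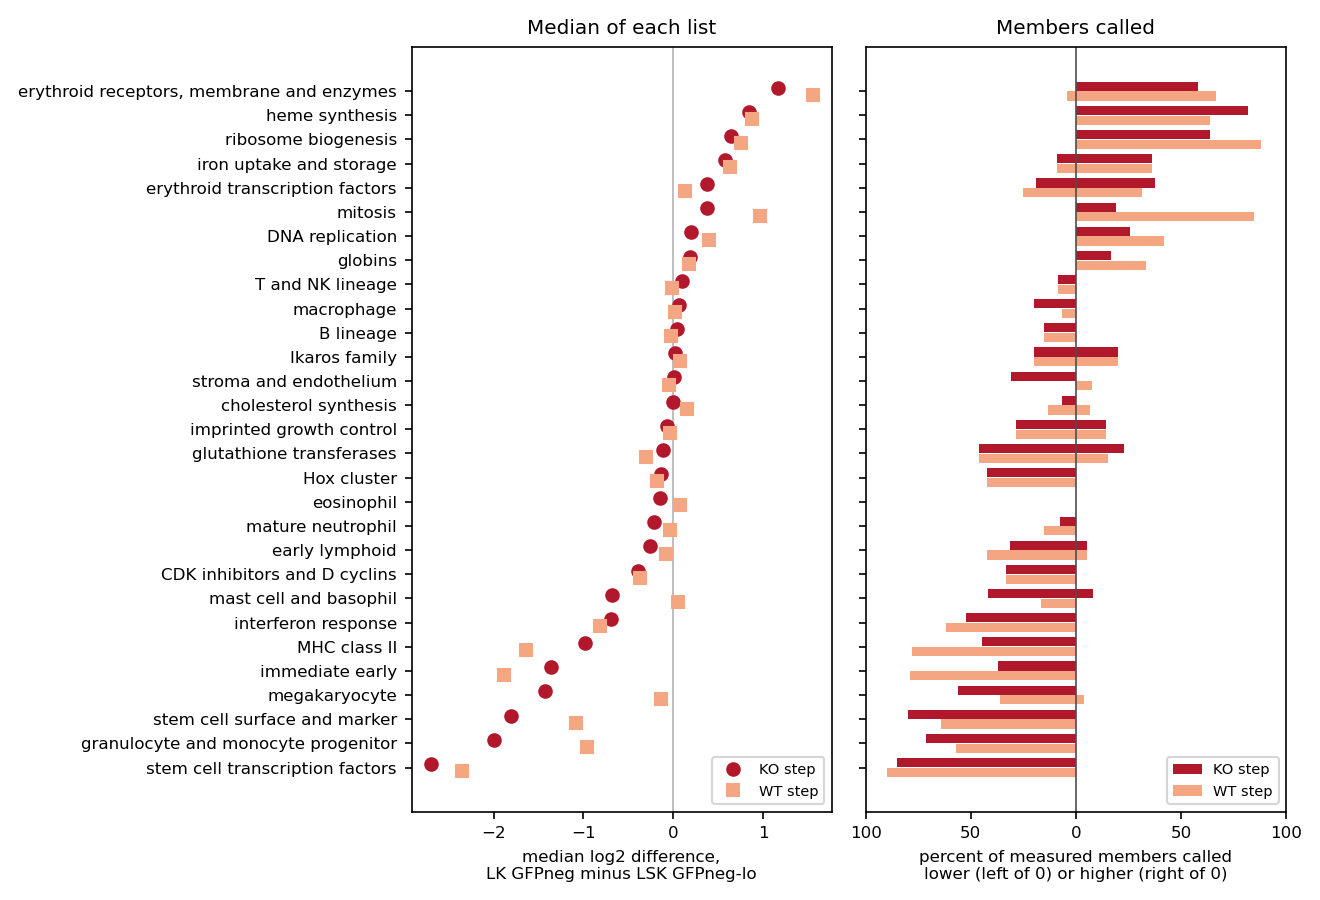
Median log2 difference of the measured members of each gene list (left) and the percent of members called lower or higher (right), with the KO step above the WT step for each list. Red cell, heme and ribosome biogenesis lists lie at the top and the stem cell transcription factor list has the lowest median in both genotypes. The megakaryocyte median was -1.43 in KO and -0.14 in WT, and the median difference of steps of its members was -0.58. In WT 9 of its 25 measured members were called lower and 1 higher.

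Stem cell transcription factors fell almost throughout. Of 20 measured, 17 fell and 0 rose, with a median of -2.70. Mecom, which encodes the stem cell factor Evi1, read 6.26, 6.34 and 6.10 in KO LK GFPneg against 10.94, 10.54 and 10.62 in KO LSK GFPneg-lo (-4.46 ± 0.25, 22.1-fold, adjusted p = 3.85e-11). Mycn, a Myc family gene, read 6.52, 6.72 and 6.38 in KO LK GFPneg against 11.58, 10.87 and 10.92 in KO LSK GFPneg-lo (-4.58 ± 0.36). The arrays were more than 4 log2 units apart in both genes. Gfi1 (-4.13 ± 0.30), a repressor that restrains stem cell division, Hoxa9 (-4.09 ± 0.21), its cofactor Meis1 (-4.03 ± 0.30), the Ets factor gene Erg (-3.67 ± 0.26), Prdm16 (-3.45 ± 0.31) and Hlf (-2.93 ± 0.22) fell too. The members not called were Lmo2 (0.25 ± 0.24), Tal1 (0.38 ± 0.20), both also erythroid factors, and the RNA-binding protein gene Msi2 (-1.34 ± 0.53, adjusted p = 0.0789, and 0.00459 with the block). In the wider Hox cluster 8 of 19 genes fell and 0 rose, among them Hoxa9, Hoxb5 (-1.53 ± 0.17) and Hoxa5 (-0.98 ± 0.09), and 5 fell without KO LK GFPneg replicate 3.

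Surface proteins of stem cells moved with them. Of 25 measured, 20 fell and 0 rose (median -1.81). Procr, the endothelial protein C receptor, read 6.57, 6.46 and 6.26 in KO LK GFPneg against 12.23, 11.36 and 11.29 in KO LSK GFPneg-lo (-5.20 ± 0.27, 36.7-fold). Fgd5, an exchange factor that marks mouse stem cells, read 6.43, 5.76 and 5.55 in KO LK GFPneg against 11.66, 10.96 and 10.80 in KO LSK GFPneg-lo (-5.23 ± 0.27), and its KO LK GFPneg level was near the low end of the array's range, so a fold may be understated. Replicate 1 was highest in each group for these genes, with no overlap. The TNF receptor family gene Cd27 (-4.11 ± 0.25), the receptor kinase genes Tie1 (-3.64 ± 0.25) and Tek (-1.55 ± 0.30), the Tek ligand gene Angpt1 (-3.05 ± 0.36), the integrin gene Itga6 (-2.40 ± 0.19) and the cytokine receptor gene Flt3 (-1.83 ± 0.29) fell. Slamf1, the stem cell marker CD150, fell by less (-0.84 ± 0.24) and lost its call in 3 of 6 fits that left out 1 array. It was not called with the mean over its probe sets (-0.336, adjusted p = 0.177), and its other probe sets gave 0.165 and -0.333. Endoglin (Eng) read 9.99, 10.18 and 9.85 in KO LK GFPneg, against 10.04, 10.00 and 9.79 in KO LSK GFPneg-lo, and the groups overlapped. Ctnnal1 (-1.81 ± 0.17) rests on a probe set of the kind that can cross-hybridise, and another probe set gave 0.002.

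Genes of granulocyte and monocyte progenitors were lower too. The granulocyte and monocyte list had 21 measured genes, of which 15 fell and 0 rose (median -1.99). Mpo, the myeloperoxidase gene, read 7.50, 8.63 and 8.32 in KO LK GFPneg against 11.88, 12.41 and 12.71 in KO LSK GFPneg-lo (-4.19 ± 0.31, 18.2-fold). The granule protease gene Prtn3 read 7.44, 8.74 and 7.94 in KO LK GFPneg against 12.69, 12.66 and 12.81 in KO LSK GFPneg-lo (-4.68 ± 0.27). Neither overlapped. Csf2rb, the shared receptor chain for IL-3, IL-5 and GM-CSF, fell by 4.81, and the protease gene Ctsg (-3.86), the lysozyme gene Lyz2 (-3.28), Cebpa (-2.09), the key factor of granulocyte commitment, and Spi1 (-1.25), which encodes PU.1, fell as well. Irf8, a monocyte factor, overlapped (6.64, 7.66 and 7.09 in KO LK GFPneg, 6.89, 7.30 and 7.47 in KO LSK GFPneg-lo). Of 12 mast cell and basophil genes 5 fell, led by the receptor gene Fcer1a (-2.48 ± 0.34) and the protease gene Cpa3 (-2.06 ± 0.30), and 1, Tpsb2, was called higher (0.31, adjusted p = 0.0484, and 0.101 with the block), which lost its call in 5 of 6 fits that left out 1 array. Mature neutrophil genes fell in 1 of 13 (Anxa1, -3.35 ± 0.33, also expressed by progenitors), macrophage genes in 3 of 15 and eosinophil genes in 0 of 6, which are near or under the 13.5% of all genes called lower. With the block the neutrophil count was 3 and the eosinophil count 2, and 1 macrophage gene was higher, against 5 with median centring.

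Early lymphoid genes fell in 6 of 19 and rose in 1. The falls were Ets1 (-3.76 ± 0.33), the genome organiser gene Satb1 (-3.21 ± 0.31), the lymphotoxin gene Ltb (-2.71 ± 0.34), Notch1 (-2.02 ± 0.28), Flt3 and Sox4 (-1.82 ± 0.40). The rise was the cannabinoid receptor gene Cnr2 (0.91 ± 0.27), which lost its call in 3 of 6 fits that left out 1 array. The recombinase genes Rag1, at 4.05 to 4.15 in KO LK GFPneg and 3.97 to 4.27 in KO LSK GFPneg-lo, and Rag2 stayed at the floor of the array. Markers of B cells fell in 2 of 13 (Cd79b, -2.87 ± 0.14, and Cd72, -1.51 ± 0.16) and of T and NK cells in 1 of 12 (Nkg7, -1.96 ± 0.20), near or under the 13.5% of all genes called lower, and the list medians were 0.04 and 0.1. Median centring called 3 B cell and 7 T and NK genes higher, and the block 1 B cell gene. The T and NK list had 2 lower without KO LSK GFPneg-lo replicate 1, KO LSK GFPneg-lo replicate 3 or KO LK GFPneg replicate 2. The antigen-presenting MHC class II list had 4 falls of 9, among them H2-Ob (-3.67 ± 0.25) and H2-Aa (-2.72 ± 0.47), and 7 with the block. H2-Aa was not called with the mean over its probe sets (-1.085, adjusted p = 0.171), and its other 3 gave -0.988, -0.416 and -0.216.

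Megakaryocyte genes fell although the labels name the LK GFPneg fraction for that lineage too. Of 25 measured, 14 fell and 0 rose, with a median of -1.43 (16 and 1 with the block, the rise being the platelet tubulin gene Tubb1). Without KO LSK GFPneg-lo replicate 3, 2 members rose, and without KO LK GFPneg replicate 1, 1 rose, and median centring gave 5 rises and 13 falls. Selp, the platelet adhesion receptor P-selectin, read 7.21, 7.32 and 7.08 in KO LK GFPneg against 11.84, 11.52 and 11.43 in KO LSK GFPneg-lo (-4.39 ± 0.28, 21.0-fold, adjusted p = 3.34e-10). Itgb3, the beta chain of the platelet fibrinogen receptor, read 7.80, 7.02 and 7.29 in KO LK GFPneg against 11.21, 11.50 and 11.35 in KO LSK GFPneg-lo (-3.98 ± 0.22, 15.8-fold). Itga2b, its alpha chain, read 9.91, 10.22 and 9.77 in KO LK GFPneg against 11.45, 12.20 and 11.95 in KO LSK GFPneg-lo (-1.91 ± 0.24). All 3 genes were higher in every KO LSK GFPneg-lo array. The platelet matrix gene Mmrn1 (-4.10 ± 0.28), Plek (-3.63 ± 0.35), a platelet kinase substrate, the tetraspanin gene Cd9 (-3.05 ± 0.23) and the lineage factor gene Fli1 (-2.99 ± 0.56) fell. Pf4, platelet factor 4, fell by 1.84 and Vwf, von Willebrand factor, by 1.82, and they lost their calls in 3 and 2 of 6 fits that left out 1 array. Rab27b was not called (0.18 ± 0.13), but its 3 other probe sets gave -1.34, -1.80 and -2.14.

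**Figure D3:**
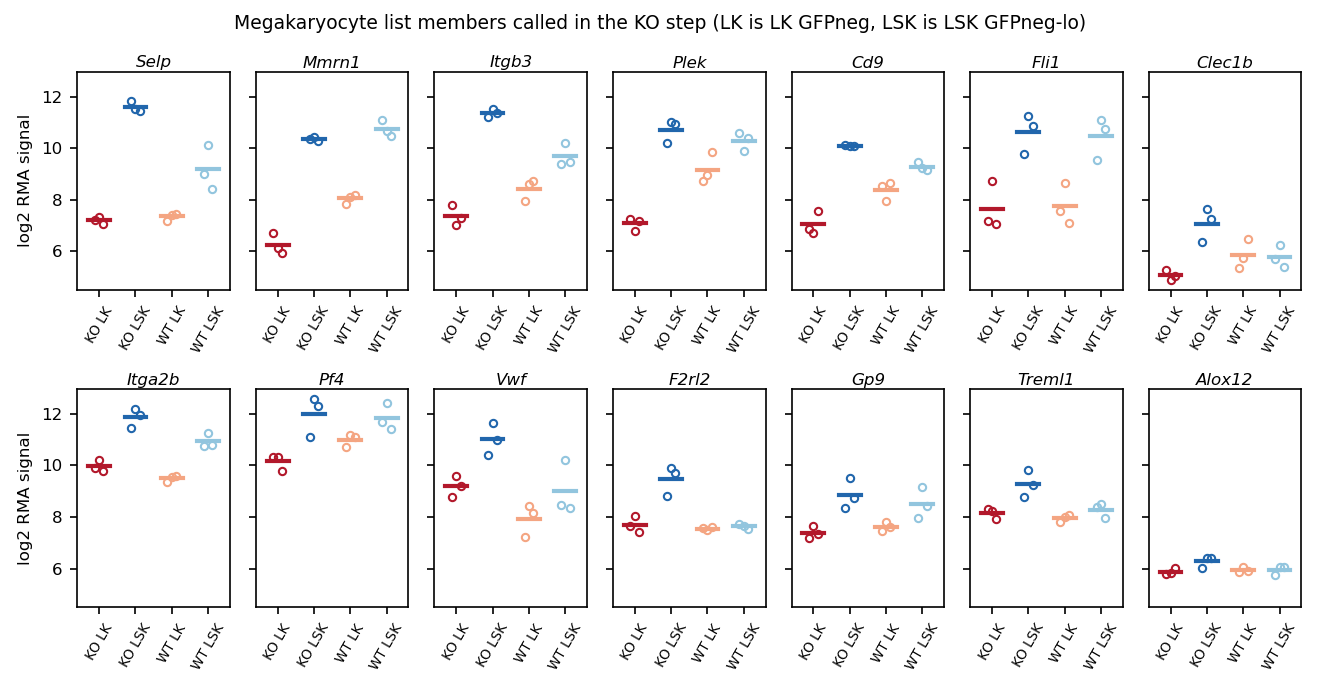
Log2 RMA signal of the 14 megakaryocyte genes called in the KO step, a panel a gene, with circles for arrays and bars for means of 3 arrays in KO LK GFPneg, KO LSK GFPneg-lo, WT LK GFPneg and WT LSK GFPneg-lo. KO LSK GFPneg-lo is the highest group in most panels, such as Selp (mean 11.6) and Itgb3 (11.35).

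Ribosome biogenesis genes were higher in KO LK GFPneg, and some genes of DNA replication and mitosis were too, while most members of those 2 lists were not called. Over all genes 9.14% were called higher. Of 25 ribosome biogenesis genes 16 rose and 0 fell (median 0.64), such as Nolc1 (1.46 ± 0.21), a nucleolar phosphoprotein gene, and Rrp12 (1.30 ± 0.30). The count was 7 without KO LK GFPneg replicate 3, 8 without replicate 1, and 9 and 10 without KO LSK GFPneg-lo replicates 2 and 3. Of 31 DNA replication genes 8 rose, led by Cdc6 (1.19 ± 0.21), which loads the replicative helicase, while the helicase genes Mcm2 to Mcm7 were not called. The replication count was 5 without KO LK GFPneg replicate 3 and 17 with median centring, which called Mcm4, Mcm5, Mcm6 and Mcm7 higher. Of 26 mitosis genes 5 rose and 0 fell (median 0.37), and 9 rose with the block and 10 with median centring. The 5 were Cenpa (1.03 ± 0.16), the centromere histone, Ttk, a spindle checkpoint kinase (0.66 ± 0.20), and 3 cyclins (Ccne1, Ccne2 and Ccna2), of which the E cyclins act at entry to S phase. The count ran from 2 without KO LSK GFPneg-lo replicate 1 to 10 without KO LK GFPneg replicate 2, and was 3 without KO LSK GFPneg-lo replicate 2, KO LK GFPneg replicate 1 or KO LK GFPneg replicate 3. Replicate 2 was lowest in both groups, with list means of 10.79, 10.33 and 10.89 in KO LK GFPneg, against 10.26, 10.05 and 10.41 in KO LSK GFPneg-lo. The cell cycle inhibitor gene Cdkn1c, which holds stem cells at rest, fell by 2.50, Cdkn2d by 1.43, Ccnd2 by 1.03 and Ccnd3 by 0.66.

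Of 19 immediate early genes, which answer stimulation within minutes, 7 fell and 0 rose (median -1.36), and 13 fell with the block. Klf6 read 7.05, 6.91 and 7.07 in KO LK GFPneg against 10.28, 9.17 and 9.23 in KO LSK GFPneg-lo (-2.55 ± 0.30). Zfp36, an RNA decay factor, fell by 2.33 and Btg2 by 1.97. Fos read 11.25, 7.99 and 9.02 in KO LK GFPneg, against 13.43, 10.99 and 11.47 in KO LSK GFPneg-lo, with replicate 1 highest in both and the groups overlapping, and its call (-2.54 ± 0.72) was lost in 3 of 6 fits that left out 1 array. The list's means were 8, 7.29 and 7.35 in KO LK GFPneg, against 9.45, 8.44 and 8.39 in KO LSK GFPneg-lo. The count was 3 without KO LSK GFPneg-lo replicate 1, 3 without KO LK GFPneg replicate 2 and 4 without replicate 3, and 11 without KO LK GFPneg replicate 1. Of 21 interferon response genes 11 fell and 0 rose (median -0.69), led by the antiviral gene Oasl2 (-2.56 ± 0.37). Glutathione transferases moved both ways, with 3 rises such as Gstm5 (1.58 ± 0.28) and 6 falls such as Mgst1 (-3.96 ± 0.33) of 13. Of 14 imprinted genes Igf2r (1.70 ± 0.15) and Grb10 (1.68 ± 0.34) rose, and Meg3 (-4.04 ± 0.22), Ndn (-3.43 ± 0.30), Dlk1 (-2.90 ± 0.26) and Cdkn1c fell. Over all genes 9.14% were called higher and 13.5% lower, so the rises among imprinted genes were near the general share. Of 15 cholesterol synthesis genes 1 fell, Hmgcs1 (-0.87 ± 0.20), which was not called with the 6 compared arrays alone (adjusted p = 0.0692) or with the mean over its probe sets (-0.469, adjusted p = 0.163), and 2 fell with the block and 4 rose with median centring.

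The same step in WT cells, which shares no array with the KO step, gave 4934 called genes (27.1%), 2368 higher (13%) and 2566 lower (14.1%), of which 766 (4.21%) and 1207 (6.63%) differed at least 2-fold. Of the genes higher in the KO step 1220 were also higher in the WT step (73.4% of the KO list and 51.5% of the WT list), and of the genes lower 1974 were also lower (80.1% and 76.9%). Calls of opposite sign numbered 3 and 5. Differences of the KO step and of the WT step were close for Klf1 (2.31 in KO, 2.41 in WT), Epor (1.90 in KO, 2.14 in WT), Kel (2.57 in KO, 2.65 in WT), Cpox (2.23 in KO, 2.29 in WT), Mecom (-4.46 in KO, -4.77 in WT) and Procr (-5.20 in KO, -5.11 in WT). For each of these the test of the difference of steps was not passed, which does not show that the steps are alike. A gene called in 1 genotype alone is not shown to differ: of 439 genes higher in the KO step and not called in WT, 11 passed the test of the difference, and of 484 lower, 20.

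**Figure D4:**
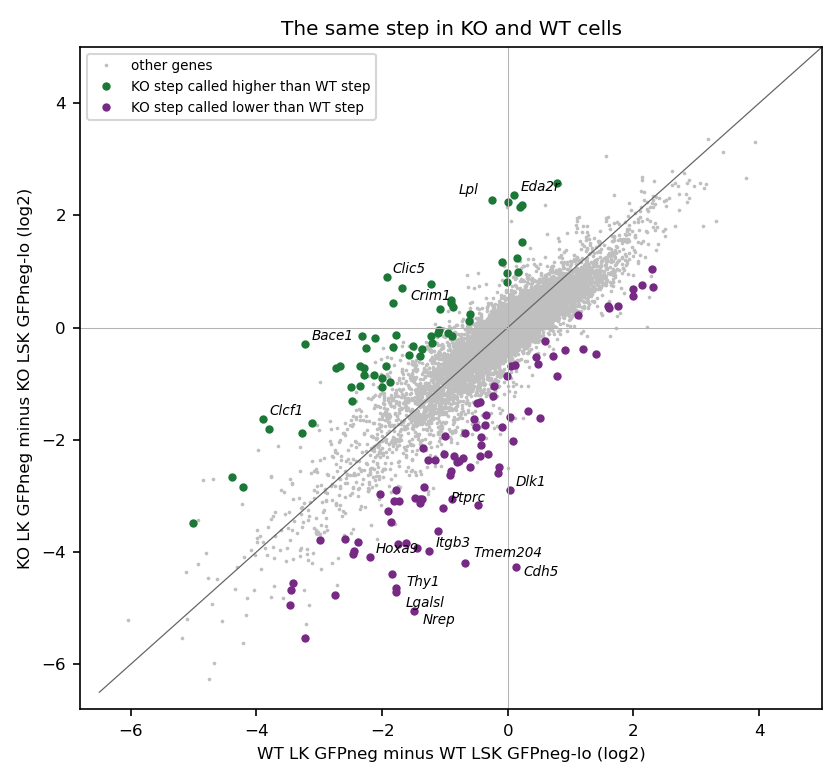
Log2 difference of LK GFPneg minus LSK GFPneg-lo in KO cells (vertical) against WT cells (horizontal), a point a gene, with the line of equality. Of the genes called in the KO step, 97.2% of those higher and 98.1% of those lower had a WT difference of the same sign. Coloured points are the 58 and 89 of the 18193 genes whose steps differed.

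The steps of KO and WT differed in 147 genes (0.808%), 58 with a higher KO step (0.319%) and 89 with a lower one (0.489%), of which 46 (0.253%) and 75 (0.412%) differed at least 2-fold, and with the block the counts were 98 and 151. The lower ones were mostly stronger falls: 51 fell in both genotypes and 20 in KO alone. Cdh5, the endothelial cadherin, read 5.38, 5.80 and 5.30 in KO LK GFPneg, against 9.85, 9.79 and 9.66 in KO LSK GFPneg-lo, with means of 4.96 in WT LK GFPneg and 4.84 in WT LSK GFPneg-lo. It was high in the KO LSK GFPneg-lo arrays and low in the other groups, and the steps differed by -4.40 ± 0.185 (adjusted p = 1.74e-11), although its dimmer probe set (mean 5.73) gave a KO step of 0.021. Of 13 stroma and endothelium genes 4 fell and 0 rose in the KO step, with 2 rises with the block, and the endothelial gene Pecam1 (-0.13) and the stromal genes Cxcl12 (0.10) and Lepr (0.05) were not called. Dlk1, an imprinted Notch-family ligand gene, read 6.18, 6.30 and 6.06 in KO LK GFPneg, against 9.46, 8.57 and 9.23 in KO LSK GFPneg-lo, with means of 6.03 in WT LK GFPneg and 6.00 in WT LSK GFPneg-lo (-2.93 ± 0.36, adjusted p = 0.000141). Nrep (-3.56 ± 0.525), Lgalsl (-2.93 ± 0.43) and Thy1 (-2.87 ± 0.405), a surface protein of stem cells and thymocytes, fell in both genotypes and more in KO. With probe sets that can cross-hybridise left out, Tmem204 (-3.52 ± 0.50) lost the call (-0.698, adjusted p = 0.185), and the differences of Nrep (-1.331) and Dlk1 (-1.665) were smaller and still called. With the mean over probe sets the differences of Cdh5 (-2.211) and Lgalsl (-1.838) were smaller and still called.

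In the megakaryocyte list 6 of 25 genes had steps that differed between genotypes: Itgb3 (-2.73 ± 0.32), Selp (-2.56 ± 0.40), Plek (-2.52 ± 0.49), Cd9 (-2.16 ± 0.33), Clec1b (-2.10 ± 0.44) and F2rl2 (-1.68 ± 0.29). Clec1b, a platelet activating receptor, was not called with the block (adjusted p = 0.0928) or in 7 of 12 fits that left out 1 array. With the mean over probe sets Plek (-1.652, adjusted p = 0.0638) and Selp (-2.355, adjusted p = 0.091) were not called. F2rl2, a protease-activated receptor gene, read 7.65, 8.04 and 7.42 in KO LK GFPneg, against 8.79, 9.91 and 9.72 in KO LSK GFPneg-lo, with means of 7.55 in WT LK GFPneg and 7.64 in WT LSK GFPneg-lo, and its difference of steps was not called with the compared arrays alone (adjusted p = 0.0601). For it and Selp, KO LK GFPneg lay near WT LK GFPneg (7.20 and 7.35 for Selp) and KO LSK GFPneg-lo above WT LSK GFPneg-lo (11.60 and 9.19). Itga2b (-0.46, adjusted p = 0.999) and Pf4 (-0.997, adjusted p = 0.999) did not pass. With the mean over probe sets Itgb3 (-1.457) was smaller and still called.

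Among stem cell genes the KO step was lower for Hoxa9 (-1.89 ± 0.30), Itga6 (-1.59 ± 0.26), Thy1 and Ptprc (-2.18 ± 0.27), which encodes the leukocyte phosphatase CD45. Ptprc read 8.63, 9.31 and 9.24 in KO LK GFPneg, against 12.39, 12.22 and 12.23 in KO LSK GFPneg-lo, with means of 11.38 in WT LK GFPneg and 12.42 in WT LSK GFPneg-lo. Here and in Hoxa9 (7.79 in KO LK GFPneg, 10.10 in WT LK GFPneg) the KO LK GFPneg group was the one apart. Hoxa9 was not called with the block (adjusted p = 0.0544), nor Ptprc with the mean over probe sets (-0.814, adjusted p = 0.376). The myeloid genes Cebpd (-1.85 ± 0.30) and Csf1r (-1.62 ± 0.34), the receptor gene for M-CSF, had lower KO steps too, and Csf1r lost its call in 9 of 12 fits that left out 1 array and with the mean over probe sets (-0.898, adjusted p = 0.0733). Coro1a (-1.49 ± 0.31) was not called with the block (adjusted p = 0.0597), with the compared arrays alone (0.0972) or with the mean over probe sets (0.231). With that mean Hoxa9 (-0.861) and Cebpd (-0.982) were smaller and still called.

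Of the 58 genes with a higher KO step, 24 fell in WT and were not called in KO, 19 fell in both and 11 rose in KO alone. Eda2r, a TNF receptor family gene, read 9.35, 8.20 and 8.92 in KO LK GFPneg, against 6.67, 6.29 and 6.41 in KO LSK GFPneg-lo, with means of 6.15 in WT LK GFPneg and 6.05 in WT LSK GFPneg-lo (2.27 ± 0.27, adjusted p = 0.000111). Lpl, lipoprotein lipase, read 11.41, 10.38 and 11.47 in KO LK GFPneg, against 8.50, 8.35 and 9.61 in KO LSK GFPneg-lo, with means of 6.62 in WT LK GFPneg and 6.86 in WT LSK GFPneg-lo (2.52 ± 0.56). Both KO groups were above both WT groups for these genes, and KO LK GFPneg was highest. Lpl lost the call in 10 of 12 fits that left out 1 array. Clic5, an ion channel family gene, rose by 0.90 ± 0.17 in KO and fell by 1.93 in WT (2.83 ± 0.24, adjusted p = 1.65e-06). Bace1, a transmembrane protease gene, read 8.82, 9.25 and 8.62 in KO LK GFPneg, against 8.98, 9.31 and 9.27 in KO LSK GFPneg-lo, which overlapped, with means of 5.98 in WT LK GFPneg and 9.21 in WT LSK GFPneg-lo (2.94 ± 0.43). Crim1 (2.40 ± 0.52) and the cytokine gene Clcf1 (2.27 ± 0.52) lost their calls in 8 and 12 of 12 fits that left out 1 array. Ltbp1, among the 12 largest rises, had a WT step of 0.78 and a difference of steps of 1.80 ± 0.26. With the mean over probe sets Bace1 (0.933), Clic5 (1.494), Clcf1 (0.985) and Ltbp1 (1.044) had smaller differences that were still called. Ifitm3, an interferon response gene, fell in both genotypes and less in KO (1.25 ± 0.20 for the difference).

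Mitosis genes were called higher in 5 of 26 in the KO step and 22 of 26 in the WT step, with medians of 0.37 and 0.96. Over all genes 9.14% were called higher in the KO step and 13% in the WT step. However, 0 of 26 mitosis genes passed the test of the difference of steps (limma, 0 higher and 0 lower), whose median was -0.63. At an unadjusted p below 0.05, 5 of them had a lower KO step (Bub1, Bub1b, Cenpe, Ube2c and Prc1) and 0 a higher one, against 3.3% of all genes with a lower and 2.54% with a higher KO step at that p. This was not particular to mitosis genes: at that p 9 of 25 megakaryocyte genes and 9 of 21 granulocyte and monocyte genes had a lower KO step. Their list means were 10.79, 10.33 and 10.89 in KO LK GFPneg, against 10.26, 10.05 and 10.41 in KO LSK GFPneg-lo, and 10.6, 10.48 and 10.75 in WT LK GFPneg and 9.38, 9.6 and 9.94 in WT LSK GFPneg-lo. The WT LK GFPneg arrays lay within the range of the KO LK GFPneg arrays, and every KO LSK GFPneg-lo array lay above every WT LSK GFPneg-lo array.

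**Figure D5:**
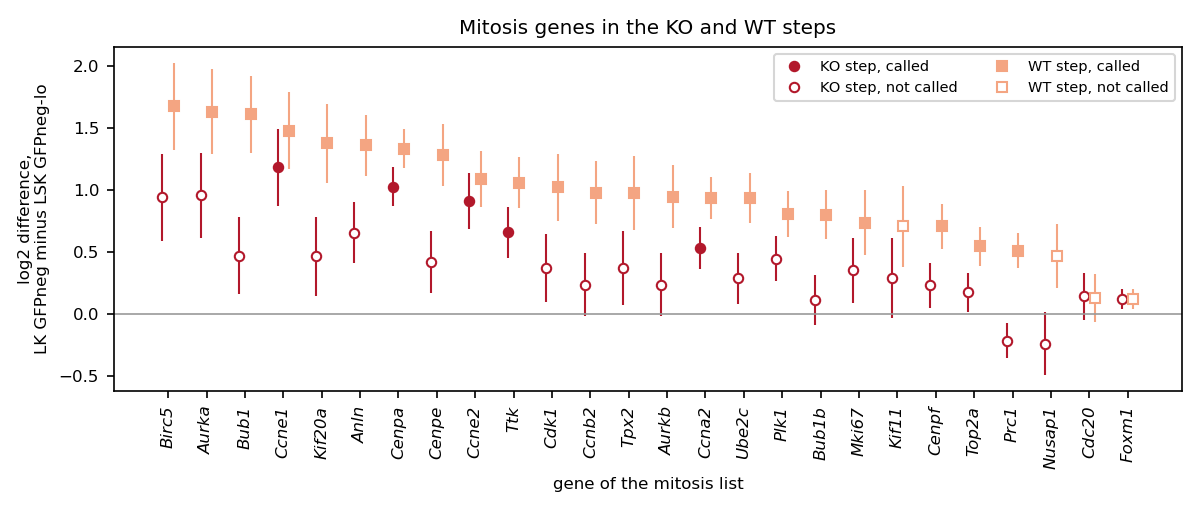
Log2 difference of LK GFPneg minus LSK GFPneg-lo for each gene of the mitosis list, with bars for the limma standard error, KO left of WT for each gene and filled symbols for called genes. The KO symbol lies below the WT symbol for most genes, such as Bub1 (0.47 in KO and 1.61 in WT).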

How the data were processed

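The deposited values are log2 signals that the authors made with RMA, per the submitters' processing notes, with its version, the annotation and the build not given in the sources used here. Per the labels' protocols, RNA came from a Trizol extraction and was hybridised as biotinylated cRNA. The 45101 probe sets were named through the platform annotation: 34945 had 1 gene symbol, 932 several and 9160 none, and 64 were controls. Each gene was represented by its brightest probe set (mean of the 24 arrays), which gave 18193 genes. R 4.3.3 and limma 3.58.1 fitted 8 group means over 24 arrays (16 residual and 3.27 prior degrees of freedom), so that all groups share 1 estimate of the spread. P-values are two-sided and Benjamini-Hochberg adjusted over all genes, with a threshold of 0.05, and ± is the standard error of the fit with n = 3 arrays a group. An exact permutation of 3 against 3 arrays cannot give a p below 0.1. The number of arrays limits the precision. The fit was tested on simulated data.

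Genes named are the 12 largest rises and 12 largest falls with a call and no overlap between the groups' arrays, the 6 largest each way in the difference of the KO and WT steps, up to 3 called members each way of each gene list, and a panel of genes of these lineages. Members, lists, panel and rule were chosen with earlier results of these data known. Same-numbered arrays of the 2 fractions deviated together from their group means (r = 0.503, 0.601 and 0.183 in KO, and 0.48, 0.531 and 0.171 in WT). For replicate 3 this was no clearer than with another number. LK GFPneg replicate 3 gave 0.167 in KO and 0.194 in WT with LSK GFPneg-lo replicate 1. The numbers come from the titles. Fits with replicate number within genotype as a block are given where they change the call of a gene described or move a list's count by over 1.5 times. Other alternatives were the arrays of the compared groups alone, dim or cross-hybridising probe sets left out, and the mean over probe sets. Trend and robust moderation, array weights, a minimum of 2-fold, and fits without 1 array each were also run. So was median centring, which used each array's median over the 18193 genes. Promoters came from RefSeq tables on GRCm38.p6.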

Additional observations from a re-analysis of the deposited data

Results flagged for a closer look

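The test of the difference between the KO step and the WT step (limma, KO LK GFPneg minus KO LSK GFPneg-lo, less WT LK GFPneg minus WT LSK GFPneg-lo) marked 28 of the genes named. The KO step was lower for the adhesion and surface genes Cdh5 (-4.399), Thy1 (-2.865), Itgb3 (-2.732), Selp (-2.557), Ptprc (-2.182), Cd9 (-2.161), Clec1b (-2.098) and Itga6 (-1.589). It was lower for the receptor genes Pdgfrb (-2.31), F2rl2 (-1.68) and Csf1r (-1.621), the transcription factor genes Hoxa9 (-1.894) and Cebpd (-1.852), and the imprinted genes Dlk1 (-2.929) and Meg3 (-1.574). Plek (-2.52), Coro1a (-1.488), Nrep (-3.563), Tmem204 (-3.519) and Lgalsl (-2.932) had lower KO steps as well. The KO step was higher for Bace1 (2.938), Clic5 (2.825), Lpl (2.516), Crim1 (2.398), Clcf1 (2.265), Eda2r (2.265), Ltbp1 (1.802) and Ifitm3 (1.255). Meg3, a maternally expressed noncoding RNA, lost its call without WT LK GFPneg replicate 3 (adjusted p = 0.0504), and Pdgfrb lost its call in 4 of 12 fits that left out 1 array. For Cdk6, a cell cycle kinase gene, all LK GFPneg arrays lay below all LSK GFPneg-lo arrays in KO and above them in WT. Its difference of steps of -0.423 was tested and not passed (adjusted p = 0.309).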

How the results depend on the processing

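Counts over all genes moved by more than 1.5 times under these settings. In the KO step, 957 genes were higher with the 6 compared arrays alone, 3473 with array weights, 7493 with median centring and 361 with a 2-fold minimum, against 1662, and 1227 were lower with the 2-fold minimum, against 2463. In the WT step, 5647 were higher with centring and 766 with the 2-fold minimum, against 2368, and 1207 were lower with the 2-fold minimum, against 2566. The difference of steps gave 98 higher and 151 lower with the replicate block and 184 and 257 with array weights, against 58 and 89. Leaving out 1 array at a time gave 1113 to 2015 higher and 2147 to 2476 lower in the KO step, 1565 to 2079 and 2178 to 2392 in the WT step, and 33 to 58 and 59 to 91 in the difference of steps. The WT count of 1565 and the lows of 33 and 59 came without WT LK GFPneg replicate 3. Higher counts for the difference were also low without WT LK GFPneg replicate 1 (37) and KO LSK GFPneg-lo replicates 2 (35) and 3 (35). Directions reversed for Ctnnal1 (0.002) and Rab27b (-2.14) with cross-hybridising probe sets left out, for Ikzf4 (-0.494) and Rab27b (-1.274) with the mean over probe sets, and for Gsta4 (0.633) with array weights. The cause was not tested. The replicate block uses the pairing and the 6 compared arrays alone. With it the KO step had 2057 higher and 2703 lower genes, and 3695 of the 4125 calls were kept. The same arrays without the block gave 957 higher and 2055 lower genes and kept 2883 of the calls. Of 227 called genes named or listed, the block fit lost 4 (Hbb-bh1, Nop10, Tpsb2 and Wdr43), and it called 48 others that the fit of 24 arrays did not. It changed no other call among them in the KO step.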
